A study of Mus musculus with 4 samples.

Results

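The 10 genes described here encode parts of the contractile apparatus of cardiac and skeletal muscle and of the membrane junctions that serve it: Actc1, Tnnc1, Tnnt1, Tnnt2, Tnni1, Myl4, Myl7, Myh7, Ttn and Jph2. They are 10 of the 25965 genes listed in the expression table. The list was selected on the measured values of 1 of them: Jph2 was chosen by its lower level with both Smarca4 hairpins, and the other 9 were added as genes of the same kind of tissue. The differences of Jph2 from the control are therefore a description and support nothing. All 10 genes were found, and 5 of them (Jph2, Tnnt1, Myl4, Myl7 and Ttn) averaged a log2 CPM of 0 or more across the libraries, the filter on low values used for counts over all genes.

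The expression values came from RNA-seq of female mESCs (mouse embryonic stem cells) whose label gives an FVB/CAST F1 background, made to follow X chromosome inactivation when Smarca4 is depleted. The day 0 library came from cells grown in 2i medium, which holds mESCs in the naive state. The other 3 libraries were harvested on day 6 after weaning into serum medium, from cells that received a retroviral hairpin on day 2 and puromycin from day 3. Those 3 libraries therefore share differentiation, transduction and selection, and differ in the hairpin: the non-silencing control (Nons), Smarca4.4 or Smarca4.6. Each group held 1 library, so there is no replicate spread to set a difference against, and p-values were not computed. Groups were read from the sample titles, since the genotype field of the labels gives Smarcc knockdown for all day 6 libraries, the Nons library included, and a non-silencing control for day 0. The growth field of the labels also names Xmas mESC lines, the reporter lines of the study, while the strain field and the series title give FVB/CAST F1.

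Striated muscle contracts when thick filaments of myosin pull on thin filaments of actin. Calcium bound by the troponin complex on the thin filament moves tropomyosin aside and lets the myosin heads attach, and titin spans the space from the Z-disc to the middle of the sarcomere. Junctophilins are not part of the sarcomere: they hold the plasma membrane or its tubules close to the sarcoplasmic reticulum, where the calcium is stored. In the early embryo several of these genes are active in heart and smooth muscle precursors before fully formed muscle exists. Smarca4, also called Brg1, drives the BAF complex, a machine that uses ATP to move nucleosomes.

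The 2 hairpins are shown by the antisense arm of each, written 5′ to 3′ with bases 2 to 8, the seed, in capitals, because both were compared with the same control.
Smarca4.4: tTTATTACtgtctgactccagt
Smarca4.6: tTGCATAAtagtgttcatcagt
The full site of Smarca4.4 lay in exon 34 of 34 of Smarca4, in the 3′ UTR, at chr9:21703327-21703348 on the plus strand (GRCm38, the same assembly as mm10). The full site of Smarca4.6 lay in coding sequence, in exon 22 of 34, at chr9:21670504-21670525. Annotated transcripts of the 10 muscle genes held the full site of neither hairpin (0 transcripts for each).

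Depth ranged from 18599401 reads at day 0 to 47143738 reads for Smarca4.4, so that 3 reads, taken as the smallest level each library can show, corresponded to between 0.0636 CPM and 0.161 CPM. Intervals below are exact 95% intervals from the reads; they cover counting error only, not the spread between cultures. Smarca4 itself had 244 CPM at day 0, 229 CPM in Nons, then 131 CPM with Smarca4.4 and 174 CPM with Smarca4.6. It was thus lower with both hairpins, by a log2 difference of -0.80 for Smarca4.4 and -0.40 for Smarca4.6. Among marker lists, the summed level of 8 naive pluripotency genes was 3506 CPM at day 0 and between 105 and 127 CPM at day 6. The sum of 12 smooth muscle markers went the other way, from 188 CPM at day 0 to between 1470 and 2140 CPM. In Nons, 38984 of the 97930 reads of these markers came from Tagln and 37168 from Cald1. Of the 12, 9 passed the filter, and all 9 were at least 2-fold higher in Nons than at day 0, beside 19.6% of all genes kept. That count is not independent of the filter, since Acta2 and Myl9, with 0 reads at day 0, passed only through day 6. Of the markers that did not pass, Myh11 had 5 reads at day 0 and 54 in Nons. Actg2 had 0 in both, and Mylk had 14 at day 0 and 6 in Nons. The sum of 12 cardiomyocyte markers was at most 23.3 CPM in any library. That of 12 skeletal muscle markers was 139.5 CPM at day 0, nearly all of it from the fast light chain Mylpf (2349 of 2595 reads), and at most 44.6 CPM at day 6. The 6 skeletal muscle factors found, Myod1 and Myog among them, together had at most 23 reads in any library. Defining markers of cardiomyocytes and of skeletal muscle were thus low at day 6, and the genes are called by their symbols below. In such bulk samples, fewer cells of a type and less RNA per cell cannot be told apart.

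The 10 genes together were a small and shifting part of the libraries. Their summed level was 56.3 CPM at day 0, 48.7 CPM in Nons, then 38.1 CPM with Smarca4.4 and 31.8 CPM with Smarca4.6. Much of that sum was 1 gene, and the gene changed: Ttn held 66.3% of it at day 0, Jph2 52.7% in Nons, and Ttn again 37.1% with Smarca4.4 and 49.9% with Smarca4.6. Without Jph2 the sums at day 6 were 23.0 CPM in Nons, then 25.8 CPM with Smarca4.4 and 26.3 CPM with Smarca4.6, and without both Jph2 and Ttn they were 15.1 CPM in Nons, 11.6 CPM with Smarca4.4 and 10.5 CPM with Smarca4.6. The sum was thus lower with the hairpins for all 10 genes and for the 8 without Jph2 and Ttn, and higher when Jph2 alone was left out. Of the 40 values (10 genes in 4 libraries), 4 were under 3 reads: Actc1 and Jph2 at day 0, Tnnt2 in Smarca4.4 and Tnni1 in Smarca4.6.

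**Figure D1:**
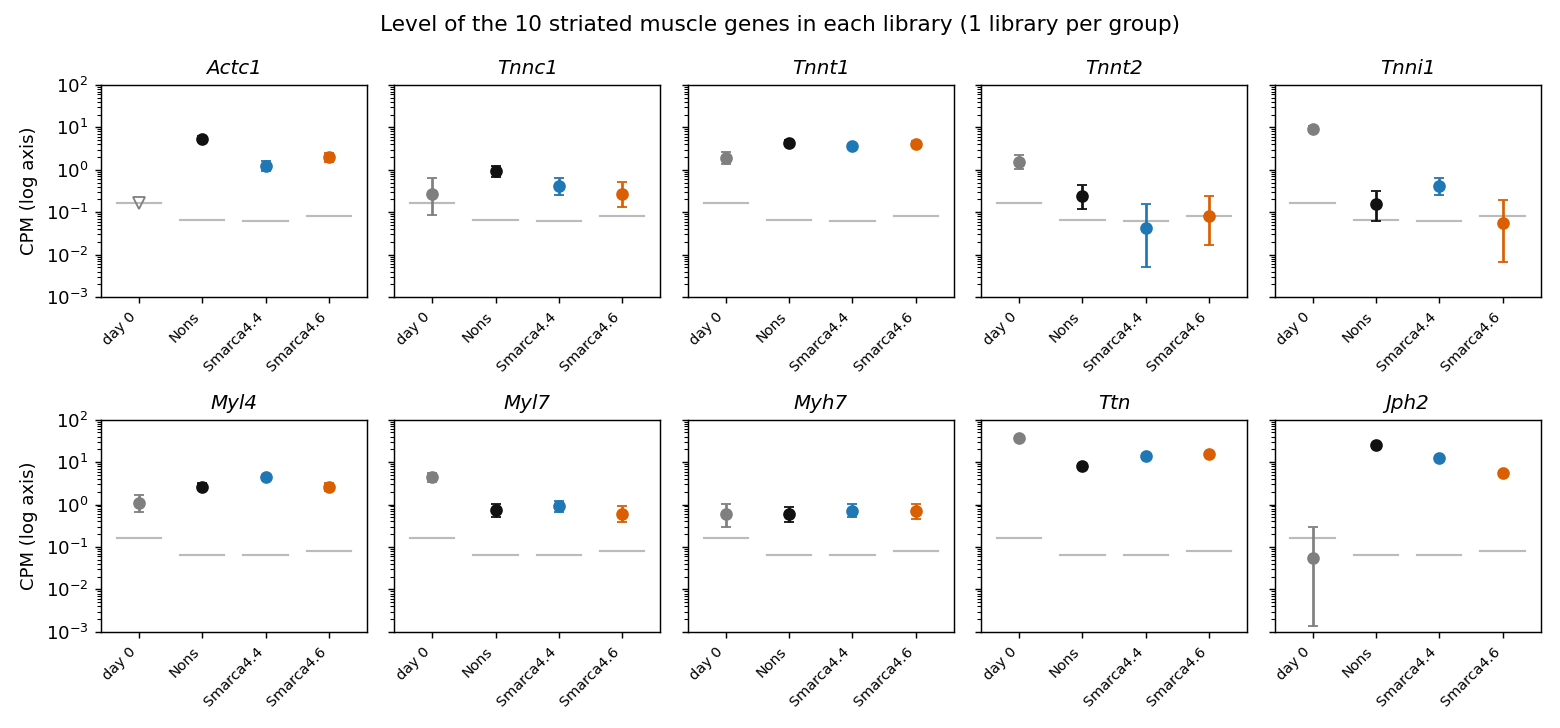
Level of each gene in CPM on a log axis, for the day 0, Nons, Smarca4.4 and Smarca4.6 libraries; bars are exact 95% counting intervals, grey lines mark 3 reads in each library, and the open triangle stands at that line for a gene with 0 reads. Jph2 and Actc1 appear at day 6 and are lower with both hairpins, while Tnni1 and Myl7 are highest at day 0.

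Between day 0 and Nons day 6, some of the genes were far higher at day 6 and others far lower. Among the 5 genes that passed the filter, 3 were at least 2-fold higher in Nons (Jph2, Tnnt1 and Myl4), beside 19.6% of the 13264 genes that passed it, and 2 were at least 2-fold lower (Myl7 and Ttn), beside 12.3%. Over all 10 genes at any level, 5 were at least 2-fold higher and 4 at least 2-fold lower, beside 17.4% and 41.8% of all listed genes without a filter, and Myh7 alone was neither. Neither share is a fair comparison for the 10. A gene with 0 reads in both libraries had a log2 difference of -1.30, from depth alone. It therefore counted as lower and could never count as higher. All 10 genes had reads in Nons, so none of them was counted in that way. With the filter, 2 of the 5 were lower, beside 12.3%. The median difference of the 5 was 1.18 on the log2 scale, where that of all genes kept was 0.031, but it was -0.53 without Jph2 and 0.59 over all 10 genes.

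With the hairpins the list split again. Jph2 was the 1 gene of the 5 that was at least 2-fold lower with Smarca4.4, beside 0.309% of all genes kept, and with Smarca4.6, beside 0.799%, and nothing is read from that, since Jph2 was selected on these differences. None of the 5 (0 with each hairpin) was at least 2-fold higher, beside 0.882% and 1.03% of all genes kept. The median of the 5 was 0.30 with Smarca4.4 and -0.070 with Smarca4.6, where all genes kept had 0.038 and 0.064. Without Jph2 these medians were 0.51 and -0.046, and over all 10 genes they were -0.0068 and -0.88, so the direction with Smarca4.4 depended on which genes passed. Over all 10 genes at any level, 4 were at least 2-fold lower with Smarca4.4 (Actc1, Tnnt2, Tnnc1 and Jph2) and 5 with Smarca4.6 (the same 4 and Tnni1), while Tnni1 was at least 2-fold higher with Smarca4.4. Without a filter, 3.51% of all listed genes were at least 2-fold lower with Smarca4.4, 3.87% with Smarca4.6, and 5.21% higher with Smarca4.4. These shares are not a fair comparison for the 10, all of which had reads in Nons. They include genes with 0 reads in both libraries compared. Such genes differed by -0.043 with Smarca4.4 and 0.33 with Smarca4.6, from depth alone, and could not be counted. With a pseudocount of 1 CPM only Actc1 and Jph2 of the 10 stayed at least 2-fold lower with either hairpin; Tnnc1 was then at -0.43 and -0.59, Tnnt2 at -0.25 and -0.20, and Tnni1 at 0.30 and -0.13 with Smarca4.4 and Smarca4.6. The comparisons with Nons share that 1 control library, so a value particular to it enters all of them.

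The filter fell between 2 of the genes. Myl7, with a mean log2 CPM of 0.21, was just inside it, and Actc1, at -0.16, just outside, because Actc1 had no reads at day 0. Myl7 passed only through its day 0 value of 2.12, with -0.43 in Nons, -0.13 with Smarca4.4 and -0.73 with Smarca4.6. Its count as lower from day 0 to Nons is therefore not independent of the filter. Neither is the count of Jph2 as higher, since Jph2 passed only through day 6. The log2 CPM of Jph2 was -4.22 at day 0, 4.68 in Nons, 3.62 with Smarca4.4 and 2.45 with Smarca4.6.

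**Figure D2:**
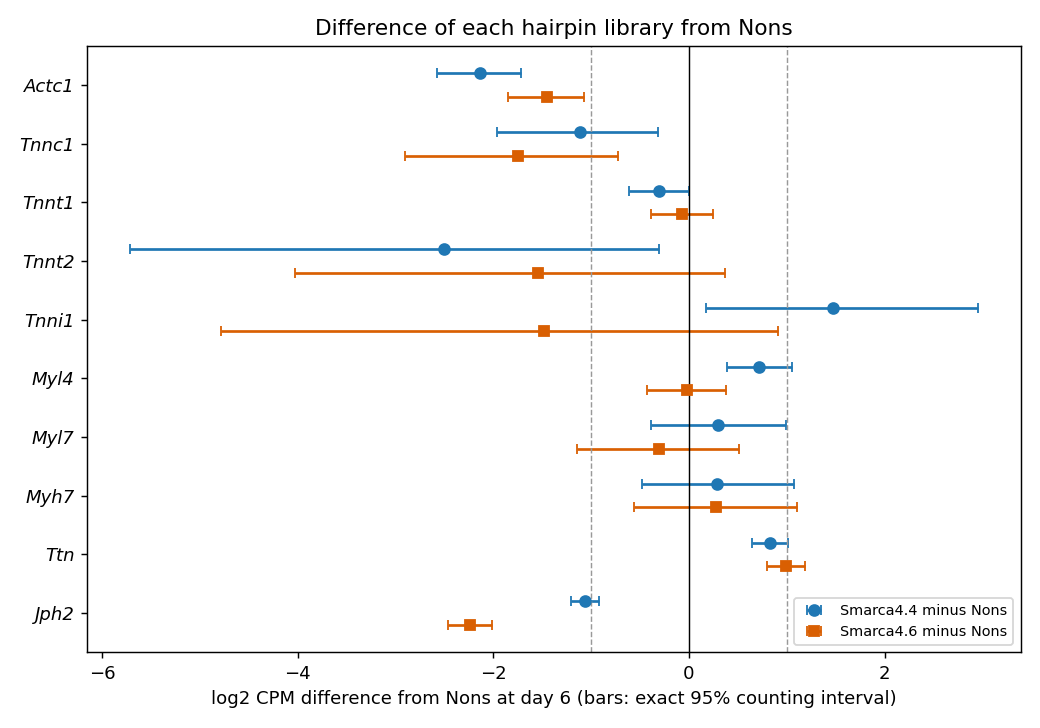
Difference in log2 CPM of each hairpin library from Nons (horizontal axis) for the 10 genes (circles, Smarca4.4; squares, Smarca4.6), with exact 95% counting intervals; dashed lines mark 2-fold. The whole intervals of Actc1, Tnnc1 and Jph2 lie left of 0 with both hairpins, and those of Ttn lie right of 0 with both, around 0.83 and 0.99. The points of Tnnt1 and Tnnt2 also lie left of 0 with both hairpins and those of Myh7 right of 0. In each of these genes the interval includes 0 with at least 1 hairpin.

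Actc1, on mouse chromosome 2 (chr2:114047282-114053548, minus strand), encodes the actin of cardiac thin filaments, which is also made in smooth muscle and in developing skeletal muscle. It had 0 reads at day 0, 247 reads (5.40 CPM) in Nons, then 58 reads (1.23 CPM) with Smarca4.4 and 72 reads (1.97 CPM) with Smarca4.6. The Nons library was highest, and its counting interval overlapped that of no other library. Against 3 reads at day 0, the level in Nons was at least 33.5-fold higher. Compared with Nons, the log2 difference of Actc1 was -2.13 (-2.57 to -1.72) with the Smarca4.4 hairpin and -1.45 (-1.85 to -1.07) with Smarca4.6, or 4.39-fold and 2.74-fold lower. The library with the smaller Smarca4 level, Smarca4.4, was also the one with less Actc1.

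The troponins differed from one another. Tnnc1, the calcium-binding subunit of slow and cardiac muscle (chr14:31208312-31211729, plus strand), had 5 reads at day 0, 42 in Nons, then 20 with Smarca4.4 and 10 with Smarca4.6. Nons was again highest, at 0.918 CPM, with 0.424 CPM and 0.274 CPM in the hairpin libraries. Its log2 differences from Nons were -1.11 (-1.96 to -0.31) with the Smarca4.4 hairpin and -1.74 (-2.90 to -0.73) with Smarca4.6, both intervals below 0. The span of Tnnc1 lies within that of Nisch, transcribed from the opposite strand with 13908 reads in Nons and at similar levels in the other libraries; GENCODE M21 gives no exon overlap, but whether reads were counted by strand was not stated.

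Tnnt1, the tropomyosin-binding subunit of slow skeletal muscle (chr7:4504570-4516382, minus strand), differed little between the libraries of day 6. It had 36 reads (1.94 CPM) at day 0, 200 (4.37 CPM) in Nons, then 167 (3.54 CPM) with Smarca4.4 and 152 (4.16 CPM) with Smarca4.6. The 3 libraries of day 6 overlapped in their intervals, and all lay above day 0. The log2 difference was 1.18 (0.66 to 1.73) from day 0 to Nons, -0.30 (-0.61 to 0.00052) with the Smarca4.4 hairpin and -0.070 (-0.38 to 0.24) with Smarca4.6.

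Tnnt2, the corresponding cardiac subunit and a usual marker of cardiomyocytes, was highest in undifferentiated cells. The gene (chr1:135836386-135852260, plus strand) had 29 reads (1.56 CPM) at day 0 and 11, 2 and 3 reads in Nons, Smarca4.4 and Smarca4.6. From day 0 to Nons its log2 difference was -2.70 (-3.85 to -1.65). Against Nons it was -2.50 with Smarca4.4, where the interval ran from -5.72 to -0.31, and -1.55 with Smarca4.6, where it ran from -4.03 to 0.37, so the few reads at day 6 leave the sizes open to wide error.

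Tnni1, the inhibitory subunit of slow skeletal muscle and of the embryonic heart, (chr1:135783065-135810989, plus strand) lies close to Tnnt2 and is separated from it by 1 listed gene, Lad1. It had 170 reads (9.14 CPM) at day 0, but 7 in Nons, 20 with Smarca4.4 and 2 with Smarca4.6. Day 0 stood far above the others, with a log2 difference to Nons of -5.90 (-7.24 to -4.83), or 59.7-fold lower in Nons. Lad1, between them, had 129 reads at day 0 and 2046 in Nons, the opposite order. Against Nons the difference of Tnni1 was 1.47 (0.17 to 2.96) with the Smarca4.4 hairpin and -1.48 (-4.78 to 0.91) with Smarca4.6, the only member at least 2-fold away from Nons in both directions.

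Of the myosin chains, the light chains Myl4 and Myl7 were measured at more reads for their length than the heavy chain. Myl4, the essential light chain of the atria and of embryonic muscle (chr11:104550663-104595753, plus strand), had 20 reads (1.08 CPM) at day 0, 121 (2.64 CPM) in Nons, then 205 (4.35 CPM) with Smarca4.4 and 95 (2.60 CPM) with Smarca4.6. Smarca4.4 was highest and did not overlap the others, whereas Nons and Smarca4.6 were alike to within counting error. The log2 difference from Nons was 0.72 (0.39 to 1.05) with the Smarca4.4 hairpin and -0.023 (-0.43 to 0.38) with Smarca4.6.

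Myl7, the regulatory light chain of the atria (chr11:5896637-5898782, minus strand), had 81 reads (4.35 CPM) at day 0, 34 (0.743 CPM) in Nons, then 43 (0.912 CPM) with Smarca4.4 and 22 (0.603 CPM) with Smarca4.6. Day 0 was 5.86-fold above Nons, and the 3 libraries of day 6 overlapped. Its log2 differences from Nons were 0.30 (-0.39 to 0.99) and -0.30 (-1.15 to 0.51) for Smarca4.4 and Smarca4.6.

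Myh7, the slow myosin heavy chain (chr14:54970688-54994634, minus strand), was low throughout. It had 11 reads (0.591 CPM) at day 0, 27 (0.590 CPM) in Nons, then 34 (0.721 CPM) with Smarca4.4 and 26 (0.712 CPM) with Smarca4.6. All 4 intervals overlapped, and the difference between day 0 and Nons could lie anywhere from -1.06 to 1.16 on the log2 scale. Its neighbour Myh6, the alpha heavy chain, had 7, 224, 271 and 218 reads in the same order of libraries. Of the 6156 stretches of 75 bases in the Myh7 transcript, 939 (15.25%) are also in Myh6, so a part of the Myh7 reads may have come from Myh6 or may have been dropped; the other 9 genes share no such stretch (0) with another gene. Antisense transcripts also overlap Myh7 exons, the largest overlap being 6.07% of its exon bases.

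Ttn encodes titin and lies at chr2:76703980-76982547 on the minus strand. It had 694 reads (37.3 CPM) at day 0, 365 (7.98 CPM) in Nons, then 667 (14.1 CPM) with Smarca4.4 and 579 (15.9 CPM) with Smarca4.6. Nons was the lowest of the 4 libraries and day 0 the highest. The log2 difference was -2.23 (-2.41 to -2.04) from day 0 to Nons. It was 0.83 (0.64 to 1.01) with the Smarca4.4 hairpin and 0.99 (0.80 to 1.18) with Smarca4.6, or 1.77-fold and 1.99-fold higher. Ttn and Jph2, the 2 genes with the most reads in Nons, thus differed from Nons in opposite directions with both hairpins.

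Jph2, junctophilin 2 of heart and skeletal muscle (chr2:163336242-163397993, minus strand), had 1 read at day 0, 1176 (25.7 CPM) in Nons, then 580 (12.3 CPM) with Smarca4.4 and 199 (5.45 CPM) with Smarca4.6. No interval of these 4 libraries overlapped another. With 1 read at day 0, the difference to Nons was 8.90 on the log2 scale, with an interval from 6.42 to 14.21. The values that chose the gene were log2 differences from Nons of -1.06 (-1.21 to -0.92) and -2.24 (-2.46 to -2.02), or 2.09-fold and 4.71-fold lower. Jph2 was 2.26-fold higher in Smarca4.4 than in Smarca4.6 (1.17 on the log2 scale, 0.94 to 1.41), whereas Smarca4 was lower in Smarca4.4. In this order of the hairpins Jph2 differed from Actc1, which was lower in Smarca4.4 by 0.68 (0.16 to 1.21 on the log2 scale).

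The other junctophilins were also higher at day 6 than at day 0, but lay nearer to Nons with the hairpins than Jph2 did. Jph1, the form of skeletal muscle, had 55, 1465, 1334 and 1149 reads at day 0, in Nons and in the Smarca4.4 and Smarca4.6 libraries. Jph3 had 1, 321, 286 and 281 reads and Jph4 had 3, 346, 365 and 383, both being forms known from brain. Their log2 differences from Nons lay between -0.21 and 0.47 with either hairpin.

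Compared per length, the order of the genes differed from that of their reads. Levels were divided by the length of the longest coding transcript and are given in the unit RPKM, the CPM value per kilobase. At day 0, Tnni1 (7.95 RPKM) and Myl7 (7.38 RPKM) were highest and overlapped in their intervals, followed at a distance by Tnnt1 (1.83 RPKM), whose interval overlapped that of Tnnt2 (1.30 RPKM) next to it. Ttn, first by reads, was at 0.349 RPKM. In Nons the order was led by Jph2 (6.10 RPKM), then Tnnt1 (4.13 RPKM) and Actc1 (3.66 RPKM), which overlapped, and Myl4 (2.80 RPKM). Ttn was then the lowest, at 0.0747 RPKM, and did not differ from Myh7 (0.0947 RPKM) beyond their intervals. In Smarca4.4 Myl4 led at 4.61 RPKM, ahead of Tnnt1 (3.35 RPKM) and Jph2 (2.92 RPKM), which overlapped. In Smarca4.6 Tnnt1 (3.93 RPKM) and Myl4 (2.76 RPKM) were first and overlapped, with Actc1 (1.34 RPKM) and Jph2 (1.29 RPKM) next and also overlapping.

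The order depended on the length used. Over the union of all annotated exons, Tnni1 at day 0 was at 2.54 RPKM and Myl7 at 7.38 RPKM, so they no longer led together. In Nons Jph2 still led, at 6.04 RPKM, but Actc1 (3.34 RPKM) then stood above Tnnt1 (1.98 RPKM). In Smarca4.4 Myl4 was at 0.938 RPKM, behind Jph2 (2.89 RPKM), Tnnt1 (1.61 RPKM) and Myl7 (1.55 RPKM). In Smarca4.6 Tnnt1 led by either length, at 1.89 RPKM over the union.

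**Figure D3:**
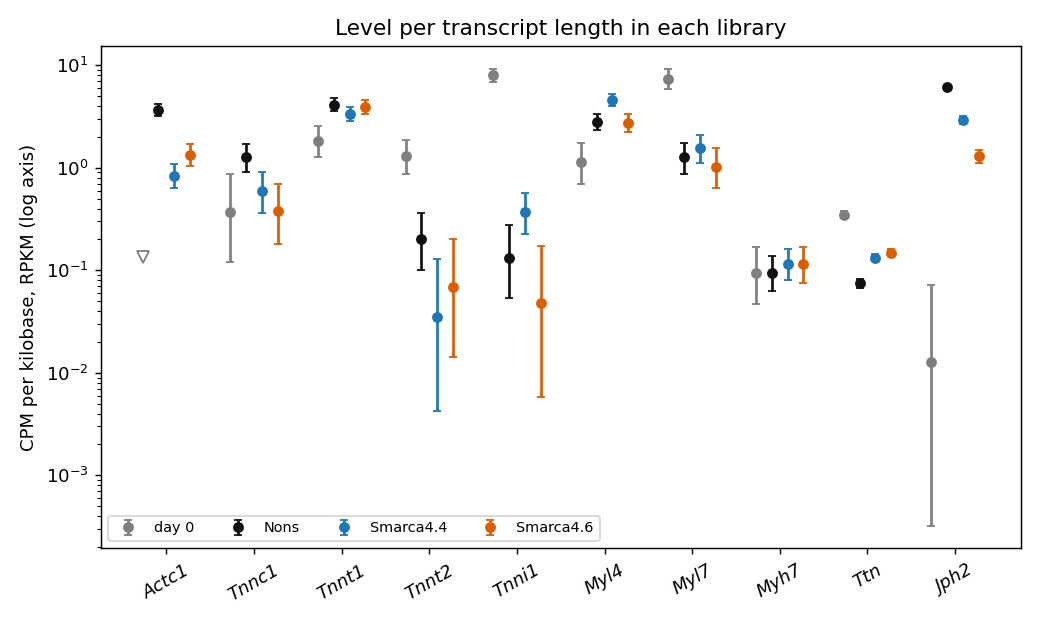
CPM per kilobase of transcript (RPKM) for each gene on a log axis, coloured by library, with exact 95% counting intervals; the triangle marks the upper limit for Actc1 at day 0, which had 0 reads. Lengths are those of the longest coding transcript, by which Tnni1 and Myl7 lead at day 0 (7.95 and 7.38; 2.54 and 7.38 over the union of exons) and Jph2 in Nons (6.10).

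Wider lists of 84 genes of the thin filament, the thick filament, the Z-disc with titin, and the junctions and calcium stores placed these values among their relatives; 38 of the 84 passed the filter, 5 of them the genes above. From day 0 to Nons, 22 of the 38 were at least 2-fold higher and 9 at least 2-fold lower, beside 19.6% and 12.3% of all genes kept. Neither count is independent of the filter. Of the lower genes, Myl7, Myom3 and Mypn passed only through day 0, with a log2 CPM below 0 in each day 6 library. Of the higher genes, some passed only through day 6, such as Acta1 and Synpo2l, which had 0 reads at day 0. With Smarca4.4, 2 of the 38 were at least 2-fold lower (Acta1 and Jph2; 0.309% of all genes kept) and 0 higher, and the median difference was 0.0037, where all genes had 0.038. With Smarca4.6, 4 were at least 2-fold lower (Acta1, Jph2, Synpo2l and Tnnc2; 0.799% of all genes kept) and 0 higher, with a median of -0.17 where all genes had 0.064. These lists were drawn up with earlier results on Acta1 and Jph2 known, so their counts are not independent of those genes.

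In the thin filament, 8 of 20 genes passed, and Acta1 was the farthest of them from Nons with both hairpins. Acta1, the actin of adult skeletal muscle, had 0 reads at day 0, 4219 (92.2 CPM) in Nons, then 1689 (35.8 CPM) with Smarca4.4 and 667 (18.3 CPM) with Smarca4.6. Acta2, the actin of vascular smooth muscle and taken from the smooth muscle markers, had 0, 2888, 1459 and 650 reads, with log2 differences from Nons of -1.03 and -1.83. For Acta1 these were -1.36 and -2.33. Both were thus lower with Smarca4.6 than with Smarca4.4, the order of Jph2 and the reverse of Actc1.

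Tpm1, a tropomyosin and the gene of the list with the most reads in Nons (89723), was at -0.39 and -0.55 on the log2 scale with Smarca4.4 and Smarca4.6. Tpm3 was at 0.036 and 0.099. Tnnc2, the calcium-binding troponin of fast muscle, had 4, 198, 124 and 69 reads and differed from Nons by -0.72 and -1.19. Nebl, the nebulin relative of the heart, did not pass the filter and stood on the other side of Nons, with 24 reads in Nons, then 60 with Smarca4.4 and 35 with Smarca4.6, at 1.28 (0.57 to 2.03) and 0.87 (0.080 to 1.68).

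In the thick filament, 8 of 24 genes passed and 0 were at least 2-fold from Nons in either direction with either hairpin. Myh6 differed from Nons by 0.23 (-0.029 to 0.49) and 0.29 (0.011 to 0.56). Myl3, the essential light chain of ventricle and slow muscle, did not pass the filter, having 0 reads at day 0, but had 139 reads in Nons, then 50 with Smarca4.4 and 36 with Smarca4.6. Its log2 differences were -1.52 (-2.01 to -1.04) and -1.62 (-2.19 to -1.08), on the other side of 0 from the 0.72 of its relative Myl4 with Smarca4.4.

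Among 12 Z-disc and titin genes that passed, Synpo2l, an actin-binding protein of the Z-disc, had 318 reads in Nons, then 215 with Smarca4.4 and 119 with Smarca4.6, at -0.61 and -1.09 on the log2 scale. Flnc and Obsl1, the 2 of the list with the most reads in Nons, lay between -0.19 and 0.18 with either hairpin. Of the 10 junction and calcium genes that passed, Jph2 was the only one at least 2-fold lower. Atp2a2, the calcium pump of the heart and of most other cells, had 14353 reads in Nons and differed by 0.27 and 0.19. Atp2a1, the pump of fast muscle, did not pass, with 54, 39 and 21 reads at day 6 and differences of -0.51 (-1.15 to 0.11) and -1.04 (-1.84 to -0.28).

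**Figure D4:**
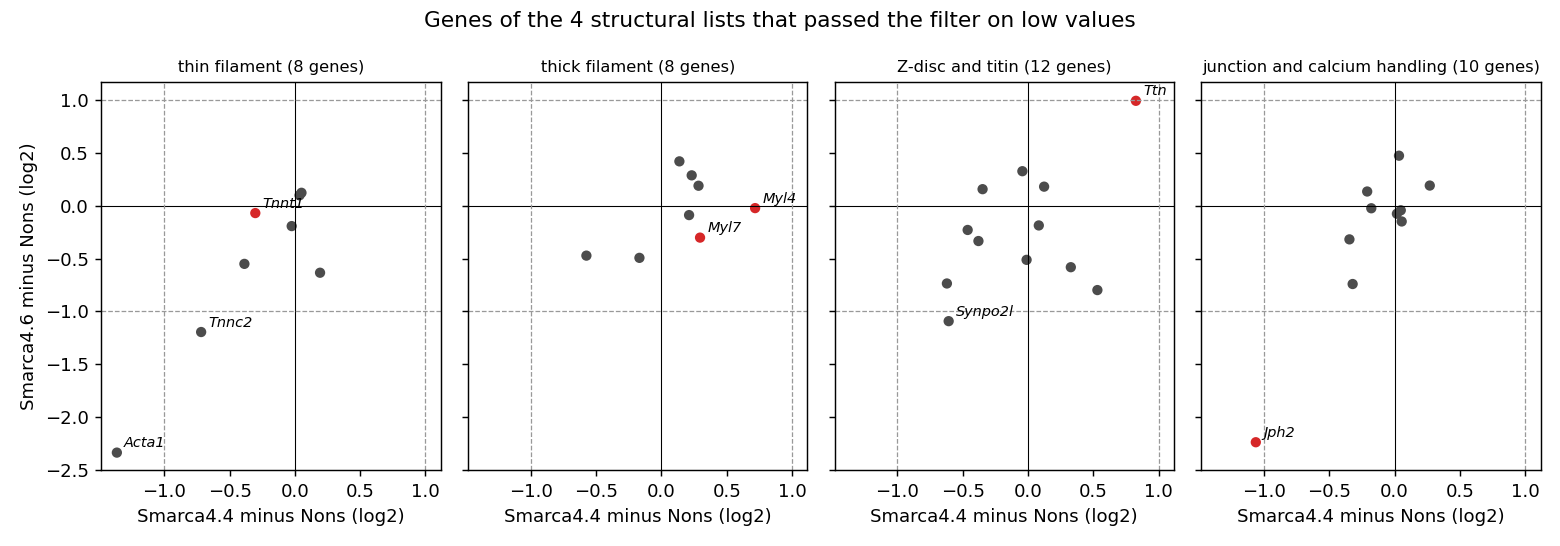
Difference from Nons in log2 CPM with Smarca4.4 (horizontal axis) and Smarca4.6 (vertical axis) for the 38 genes of the 4 structural lists that passed the filter; red points are genes of the 10, dashed lines mark 2-fold, and both axes share the Nons library. Acta1 and Jph2 lie past 2-fold with both hairpins (at -1.36 and -2.33, and at -1.06 and -2.24), and Ttn lies at the opposite corner.

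Transcription factors of muscle were listed separately. Of 10 cardiac factors, 3 passed the filter: Tbx20, Gata4 and Hand1. Gata4 had 17 reads at day 0 and 102 (2.23 CPM) in Nons. It was higher with both hairpins, at 140 reads (2.97 CPM) with Smarca4.4 and 136 (3.73 CPM) with Smarca4.6. Tbx20, a T-box factor of the heart, had 19 reads at day 0, 644 in Nons, then 385 with Smarca4.4 and 242 with Smarca4.6, and differed from Nons by -0.79 and -1.09. Hand1, a factor of the heart and extraembryonic mesoderm, had 5, 294, 914 and 400 reads and was higher with both hairpins, by 1.59 (1.40 to 1.79) and 0.77 (0.55 to 0.99). Myocd, the coactivator of serum response factor in heart and smooth muscle, did not pass the filter. It had 1, 38, 18 and 43 reads, at -1.12 (-2.02 to -0.28) with Smarca4.4 and 0.50 (-0.16 to 1.17) with Smarca4.6. The cardiac factors therefore lay on both sides of Nons.

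Most smooth muscle markers were below Nons with the hairpins, as Acta1 and Acta2 were. Of the 12, 9 passed the filter, and 7 of these were below Nons with Smarca4.4 and 8 with Smarca4.6. Of all genes kept, 56.5% were above Nons with Smarca4.4 and 58.9% with Smarca4.6. Some of the shifts were small, such as -0.036 for Cald1 with Smarca4.4. The summed level of the 12 was 2140 CPM in Nons, then 1829 CPM with Smarca4.4 and 1470 CPM with Smarca4.6. Actg2 was at 0 reads at day 0 and in Nons. Tagln had 38984, 30035 and 19625 reads in the 3 libraries of day 6, with differences of -0.42 and -0.66, and Lmod1 differed by -0.46 and -1.52. The part of these genes' cells in the levels of Jph2, Actc1 and Acta1 was not tested. The summed cardiomyocyte markers differed less (15.9 CPM in Nons, with 16.7 CPM and 15.0 CPM in the hairpin libraries), with Myl2 at 0 reads in Nons and in Smarca4.6. The skeletal muscle markers summed to 44.6, 36.3 and 36.6 CPM, the fibroblast markers to 63.4, 60.3 and 55.2 CPM, and the endothelial markers to 17.5, 14.8 and 12.1 CPM. In Nons, Fbln1 held 1531 of 2899 fibroblast reads and Pecam1 489 of 800 endothelial reads. Dcn (35, 52 and 63 reads) and Cdh5 (23, 32 and 44) did not pass the filter and went the other way. Of 6 fibroblast genes kept, 2 were below Nons with Smarca4.4 and 4 with Smarca4.6. Both endothelial genes kept were below Nons with each hairpin.

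The genes nearest to Jph2 in pattern were sought by the Euclidean distance over the log2 differences from day 0 to Nons and from Nons to each hairpin, among 14789 genes with at least 3 reads in all 4 libraries. The rule left out genes with under 3 reads at day 0, such as Acta1 and Acta2 with 0 and Jph3 with 1, as Jph2 itself had. Distances of the genes left out were not computed. The rule also used the hairpin differences on which Jph2 was selected and a day 0 value of 1 read, so the list is a description. Within it, the nearest were Xist (distance 1.83), Thbs1 (2.00), Krt18 (2.33), Krt8 (2.46) and Car4 (2.47), all of them far higher in Nons than at day 0 and nearer to Nons than Jph2 was with the hairpins. With Smarca4.6, for example, Xist differed from Nons by -0.59 and Krt8 by -0.12, where Jph2 differed by -2.24.

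The bases before the transcription start are shown for 4 genes, because Actc1 and Jph2 were lower with both hairpins, Ttn was higher and Myl7 overlapped Nons. Each line gives the 120 bases up to the RefSeq start (GRCm38.p6), 5′ to 3′ on the minus strand that is transcribed, and capitals mark a CArG box, the motif known to be bound by serum response factor. The positions are chr2:114052876-114052995 for Actc1, chr2:163397994-163398113 for Jph2, chr2:76982548-76982667 for Ttn and chr11:5898783-5898902 for Myl7. The gene span that the table gives for Actc1 reaches past the RefSeq start and includes its window.
Actc1: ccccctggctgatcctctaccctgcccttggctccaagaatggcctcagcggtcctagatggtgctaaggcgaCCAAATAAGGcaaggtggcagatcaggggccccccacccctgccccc
Jph2: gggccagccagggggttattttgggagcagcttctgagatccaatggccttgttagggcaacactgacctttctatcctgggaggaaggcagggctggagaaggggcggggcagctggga
Ttn: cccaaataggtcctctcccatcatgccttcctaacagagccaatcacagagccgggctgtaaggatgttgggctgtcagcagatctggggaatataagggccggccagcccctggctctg
Myl7: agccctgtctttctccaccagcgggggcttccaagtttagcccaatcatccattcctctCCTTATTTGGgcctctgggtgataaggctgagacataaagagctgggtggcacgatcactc

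All 10 genes had a RefSeq promoter entry, and motifs were searched on both strands of the 250 bases before the first listed start. For Actc1, Tnnt1 and Tnni1 these bases lay wholly within the gene span given with the expression values, not upstream of it. A CArG box was found in 2 of the 10, Actc1 and Myl7, and in 1.40% of 27025 promoters. It was found in Acta1 as well. The site of a MEF2 factor was found in 1 of the 10, Ttn, and in 3.01% of promoters. CATTCC, the core of the M-CAT element, was found in 4 (Tnnt2, Tnnc1, Myl7 and Myh7) and in 12.6% of promoters, TATAAA in 1 (Tnnt1) and in 13.0%, and the E-box CANNTG in 8 and in 66.0%. The genes with a CArG box included Actc1, with its lower values with both hairpins, and Myl7, without them, and Jph2 had none in this window. A match in letters is a description of the sequence and was not tested as a binding site.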

How the data were processed

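Groups were taken from the sample titles, with 1 library in each. The authors trimmed the 75-base paired-end reads, aligned them with HISAT2 to the mm10 genome with strain variants masked, and quantified genes in SeqMonk; the strand setting was not given in the sources used here. The deposited values are log2 CPM per gene and library, with both alleles combined. Back-transformed values were whole multiples of 1 step, which gave the reads and the total of each library (18599401, 45759791, 47143738 and 36495574 for day 0, Nons, Smarca4.4 and Smarca4.6); all values up to 1000 reads were whole within 0.1 reads. Genes with 0 reads had been written as 0.9 reads.

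Differences are between deposited log2 CPM values. Intervals are exact (Clopper-Pearson) binomial or exact Poisson intervals at 95%, from the reads, computed in Python 3.11.15 with scipy 1.17.1 and tested on simulated data. Filter: mean log2 CPM of at least 0 (13264 genes kept). Whether a pair was counted as 1 read or by each end was not given. Among low read counts, between 39.5% and 41.6% were even in each library, so they were not mainly even, as counting both ends of every pair would make them. Lengths (longest coding transcript, with the union of exons as an alternative added after seeing the data) came from GENCODE M21, promoters from RefSeq and hairpin sequences from the study's oligo list.

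The 10 genes and the wider lists were chosen with earlier results of these data known. Of the wider lists, 1 gene is not reported here and was left out of their counts. The genes named were drawn from the 10, Smarca4, the 5 nearest to Jph2, and genes of the wider lists that differed at least 2-fold from Nons with at least 30 reads in either library or were among the 2 highest in Nons. The other junctophilins, Nisch, Lad1, Mylpf, Mylk, Gata4, Myom3, Mypn and Myl9 were named after their values were seen. Alternatives were no filter, a filter at 3, a pseudocount of 1 CPM, centring on the median of all genes, and leaving out Jph2; a filter on the day 6 libraries was added after seeing the data.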

Additional observations from a re-analysis of the deposited data

Results flagged for a closer look

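In 3 genes the libraries of the 2 hairpins lay on opposite sides of Nons. Tnni1 was at 1.47 on the log2 scale with Smarca4.4 and at -1.48 with Smarca4.6, from 20 and 2 reads against 7 in Nons. Myl4 was at 0.718 with Smarca4.4 and at -0.0226 with Smarca4.6, from 205 and 95 reads against 121. Myl7 was at 0.296 and at -0.302, from 43 and 22 reads against 34. With 1 library per hairpin the difference between the hairpins was not tested; the counting interval of Smarca4.4 minus Smarca4.6 lay above 0 for Tnni1 (0.91 to 6.09) and Myl4 (0.38 to 1.11) and included 0 for Myl7 (-0.18 to 1.41).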

How the results depend on the processing

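No paired analysis was possible because there was 1 library for each group, and for the same reason none could be left out. Of 45 alternative values for the list, 26 stayed near the value reported (counts within 1.5 times, medians within the counting intervals), 14 moved and 5 changed sign; some of the 26 still shifted by over 1.5 times, such as the Smarca4.4 median, 0.30 as reported, 0.83 with the stricter filter and 0.13 with the pseudocount. Of 60 single-gene differences, 52 stayed within the counting interval, which is wide for the low genes, 8 left it, with the pseudocount, and 0 changed sign. With no filter, 5 of the genes were at least 2-fold higher and 4 lower from day 0 to Nons (17.4% and 41.8% of all genes; median 0.5859), 1 higher and 4 lower with Smarca4.4 (5.21% and 3.51%; median -0.006774, below 0 where the kept genes gave 0.30), and 5 lower with Smarca4.6 (3.87%; median -0.8769). The shares with no filter include genes with 0 reads in both libraries compared. A mean log2 CPM of at least 3 left Ttn alone: 0 higher and 1 lower from day 0 to Nons (-2.226), 0 lower with either hairpin, and 0.992 with Smarca4.6. A pseudocount of 1 CPM left 1 gene, Jph2, at least 2-fold higher from day 0 to Nons. Without Jph2 that median was -0.5254 in place of 1.18. With the filter on the day 6 libraries, added after seeing the data, Actc1 passed and Myl7 did not, 2 genes were lower with each hairpin (0.343% and 0.842% of all genes), and the Smarca4.4 median was -0.3031. The medians of so few genes thus follow which genes pass. Depth limits Tnnt2 and Tnni1 most, with 2 to 20 reads at day 6, and 1 library per group leaves the spread between cultures unknown.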
